A study of Mus musculus with 4 samples.

Results

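The mTOR complexes, their upstream switch and the MNK kinases were followed in ribosome-protected RNA from dorsal root ganglia of mice, which hold the cell bodies of sensory neurons next to the spine. The set was fixed by gene name: Mtor, Rptor, Rictor, Mlst8, Tsc1, Tsc2, Rheb, Rps6kb1, Mknk1 and Mknk2. All 10 names were found, each in 1 row of a deposited table of 48431 genes. Per the labels, the 4 libraries, replicates 1 to 4, form 1 group: ganglia of male wild-type SW mice that received methylglyoxal, a reactive by-product of glycolysis, by intraperitoneal injection at 2 mg/kg over 6 days. The animals' age and the number of animals behind a library are not stated by the labels. The protocol text of the same samples mentions saline, which goes against the treatment label. No control libraries were analysed here, so nothing below measures an effect of methylglyoxal, and the comparisons are between genes within a library and between the libraries.

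The kinase mTOR works in 2 protein complexes. In mTORC1 the scaffold raptor, the product of Rptor, brings substrates to the kinase, and in mTORC2 rictor, the product of Rictor, takes that place. The small GTPase Rheb switches mTORC1 on at the lysosome, and the TSC complex of hamartin (Tsc1) and tuberin (Tsc2) switches Rheb off. Active mTORC1 phosphorylates S6 kinase and the 4E-BP proteins, which raises translation, whereas MNK1 and MNK2 (Mknk1 and Mknk2) sit on the scaffold eIF4G and phosphorylate the cap-binding protein eIF4E. In sensory neurons of mice both arms are known for their part in the sensitization of nociceptors.

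The libraries held 2610537 to 3753015 reads, recovered from the value of 1 read in each. Values are CPM, that is, counts scaled to 1000000 per library with no division by length. A count of 0 allowed up to 0.799 to 1.15 CPM. Replicates 1 and 2 differed by little more than sampling noise, with a chi-square per degree of freedom of 1.03, as did replicates 3 and 4 with 1.05, whereas libraries of different pairs gave 3.33 to 4.12. The small excess within the pairs was itself detectable over all genes, with chi-square p = 0.00934 for replicates 1 and 2 and p = 3.97e-05 for replicates 3 and 4. Each pair was counted as 1 sample, so that a mean ± SD is over 2 pair means. Whether separate animals stand behind the replicates is not stated, so this spread may be technical, as may what the p-values measure. Markers of the labelled tissue were present: all 10 sensory neuron markers and all 8 markers of myelinating Schwann cells were detected. They summed to 11812 to 12293 and 21142 to 26014 CPM, against 67.1 to 97.2 CPM for 6 spinal cord markers, 5 of them detected. Fibroblast and matrix markers, detected for 6 of 6, summed to 23686.5 to 26263.7 CPM, more than the sensory neuron markers in every library. Skeletal muscle markers, detected for 8 of 8, summed to 3624 and 3676 CPM in replicates 1 and 2, against 2248 and 2233 CPM in replicates 3 and 4.

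Short reads can fit more than 1 gene, so sequence shared with other genes was counted for all members. Mknk1, Mknk2, Rps6kb1 and Rheb were also compared with a paralog, a related gene. A footprint selected here is as short as 28 nt. No 28-base window of the coding sequence of 9 of the members occurred in an annotated transcript of another gene (GENCODE M21, GRCm38). Rptor was the exception, with 61 of 3978 windows, 1.53%, matching its antisense transcript Rptoros, which itself stood at 0.799 to 1.92 CPM. The closest windows of each paralog pair follow, 5′ to 3′, with the bases that differ in capitals. In the MNK pair, 27 of 28 bases are the same.
Mknk1: gacaagcgctgTgacctgtggagcctgg
Mknk2: gacaagcgctgCgacctgtggagcctgg
The Mknk1 window lies in exon 10 of 13 at chr4:115874686-115874713, plus strand, and that of Mknk2 in exon 11 of 14 at chr10:80668623-80668650, minus strand. In the S6 kinase pair, 26 of 28 bases are the same, across the junction of exons 12 and 13 in both genes.
Rps6kb1: tgcaatcTgaagaggatgtgagTcagtt
Rps6kb2: tgcaatcAgaagaggatgtgagCcagtt
These windows span chr11:86506873-86511590 and chr19:4157764-4157880, both on the minus strand. In the Rheb pair the closest windows, in exon 1 of each gene, still differ at 5 bases.
Rheb: ggaagAtCgccatcctGggCtaccgGtc
Rhebl1: ggaagGtGgccatcctAggGtaccgCtc
They lie at chr5:24842190-24842217 and chr15:98881155-98881182, both on the minus strand. With up to 2 mismatches, 28 of 1218 windows of Mknk1 (2.30%) matched Mknk2, 5 of 1548 windows of Rps6kb1 (0.323%) matched Rps6kb2, and 0 of 525 windows of Rheb matched Rhebl1. Over the whole aligned coding sequence the identity was 77.2% for the MNK pair, 72.8% for the S6 kinase pair and 70.8% for the Rheb pair. How many mismatches the authors allowed is not stated by the labels.

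The kinase gene Mtor took by far the most reads of the set. Mtor (chromosome 4, 148448611 to 148557683, plus strand, 58 exons, GRCm38) stood at 207, 202, 184 and 195 CPM in replicates 1 to 4, a mean of 197 ± 10.7 CPM (SD, n = 2). Replicates 1 and 2 both lay above replicates 3 and 4, by a log2 ratio of 0.11, and the 95% exact Poisson intervals of all 4 libraries overlapped, from 192 to 222 CPM in replicate 1 against 168 to 202 CPM in replicate 3. Its gene holds Angptl7, which encodes an angiopoietin-like protein, on the opposite strand at 156 CPM on average, but the exons of these genes share 0 bases. Mlst8, the WD-repeat subunit of both complexes (chromosome 17, 24473551 to 24479078, minus strand), stood at 18.9, 18.6, 21.1 and 16.8 CPM, a mean of 18.8 ± 0.116. These 233 reads gave wide intervals, 12.9 to 21.5 CPM in the lowest library and 15.9 to 27.4 CPM in the highest, so the small SD understates the counting error.

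The defining subunits of the complexes stood at similar read levels. Rptor (chromosome 11, 119602905 to 119899576, plus strand) stood at 57.1, 46.7, 44.1 and 54.6 CPM, a mean of 50.6 ± 1.80 (SD, n = 2). The higher values came from replicates 1 and 4, the libraries with the most reads, and the spread within each pair exceeded that between the pair means. Whether depth had a part in this was not tested. Rictor (chromosome 15, 6708379 to 6800401, plus strand) was the steadiest member, at 49.9, 49.7, 50.9 and 47.4 CPM with a mean of 49.5 ± 0.442. Its highest library exceeded its lowest 1.07-fold. The 95% exact Poisson intervals were wider, 40.7 to 54.9 CPM in the lowest library and 42.7 to 60.4 CPM in the highest. The small SD of Rictor therefore also understates the counting error.

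**Figure D1:**
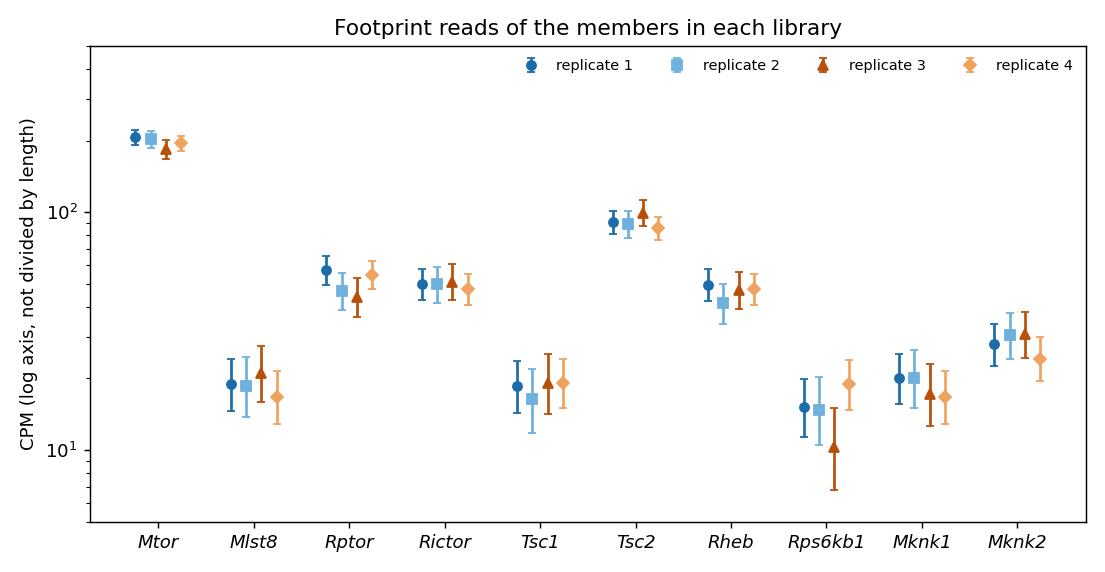
CPM (log axis, not divided by gene length) of the 10 members in each of the 4 libraries; points are libraries and bars are 95% exact Poisson intervals of the reads. Mtor lies near 200 and Rps6kb1 between 10.3 and 18.9, and within each gene the intervals of most libraries overlap.

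The genes of the TSC complex were far apart. Tsc1 (chromosome 2, 28641228 to 28691167, plus strand), whose product stabilises tuberin, stood at 18.6, 16.3, 19.2 and 19.2 CPM, a mean of 18.3 ± 1.19 (SD, n = 2). Tsc2 (chromosome 17, 24595816 to 24632630, minus strand), which encodes the GTPase-activating subunit, stood at 90.6, 89.2, 99.6 and 85.5 CPM, a mean of 91.2 ± 1.87. Every library of Tsc1 lay below every library of Tsc2. Tsc2 meets its neighbour Pkd1, the polycystin-1 gene, tail to tail on the opposite strand, with 693 exonic bases in common and 0 of them in the coding sequence of Tsc2. Pkd1 stood at 61.6 to 74.3 CPM, and since the strand setting is not given, reads in those bases cannot be told apart. Rheb (chromosome 5, 24802823 to 24842624, minus strand) stood at 49.6, 41.4, 47.1 and 47.4 CPM, a mean of 46.4 ± 1.26, with replicate 2 the lowest.

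Of the kinases that act on translation, Rps6kb1 had the fewest reads of the 10 members. Rps6kb1 (chromosome 11, 86498871 to 86544805, minus strand), which encodes S6 kinase 1, stood at 15.2, 14.8, 10.3 and 18.9 CPM, a mean of 14.8 ± 0.263 (SD, n = 2). Its extremes, 27 reads in replicate 3 and 71 in replicate 4, fell within 1 pair and differed 1.83-fold, the widest range of the 10. Their intervals, 6.82 to 15.1 and 14.8 to 23.9 CPM, barely overlapped. Mknk1 (chromosome 4, 115839198 to 115879250, plus strand) stood at 20.1, 20.1, 17.2 and 16.8 CPM, a mean of 18.6 ± 2.18, with replicates 1 and 2 above replicates 3 and 4. Mknk2 (chromosome 10, 80665327 to 80678112, minus strand) stood at 27.8, 30.4, 30.6 and 24.2 CPM, a mean of 28.3 ± 1.16, and its pairs overlapped. Every library of Mknk2 lay above every library of Mknk1. Fewer cells of a type, less message per cell and less translation per message cannot be told apart in footprints of whole ganglia, for these genes or any other.

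Divided by coding length, the order changed, and Rheb came first. Per kb of coding sequence Rheb reached 84.0 ± 2.28 CPM per kb (SD, n = 2), higher than 90.9% of 13799 detected coding genes, whose median was 11.2 CPM per kb. Detected means a mean of at least 1 CPM. Mtor followed with 25.8 ± 1.40, then Mknk2 with 20.5 ± 0.846, Mlst8 with 19.3 ± 0.118 and Tsc2 with 16.8 ± 0.345 CPM per kb. Mknk1 stood at 14.9 ± 1.75, Rptor at 12.6 ± 0.449, Rictor at 9.66 ± 0.0863, Rps6kb1 at 9.41 ± 0.167 and Tsc1 at 5.26 ± 0.343 CPM per kb. The median of the 10 was 15.9 CPM per kb, and 3 of them, Rictor, Rps6kb1 and Tsc1, lay under the median of all detected coding genes.

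Several neighbours in this order could not be told apart. Rheb and Mtor, Mtor and Mknk2, Rptor and Rictor, and Rps6kb1 and Tsc1 had ranges over the 4 libraries that did not overlap. The ranges of the other neighbours overlapped. Mknk1 exceeded Rptor, and Rictor exceeded Rps6kb1, in only 3 of 4 libraries. With reads pooled over the libraries, the 95% intervals of Mknk2 (18.2 to 22.5 CPM per kb), Mlst8 (16.7 to 21.7) and Tsc2 (15.8 to 17.7) overlapped from each gene to the next. The place of Rheb rests on its short coding sequence of 552 bases. Its annotated exons cover 7721 bases, and divided by exon length it stood at 6.01 CPM per kb, below Tsc2 at 9.48 and Mtor at 19.5. Reads in coding and untranslated parts were not separated in the deposited values.

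**Figure D2:**
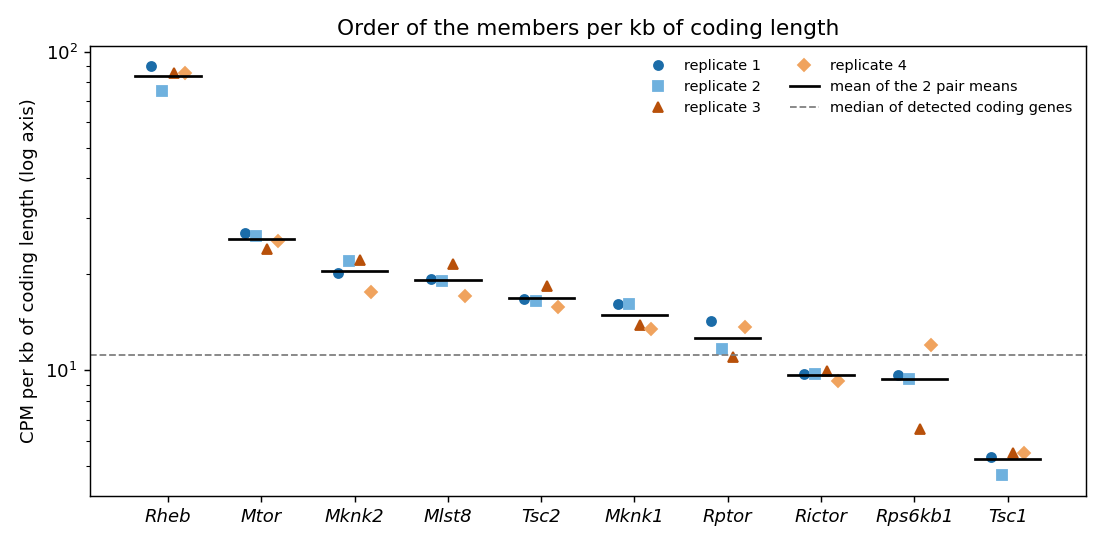
CPM per kb of coding length (log axis) of the 10 members in each library, ordered by the mean of the 2 pair means (black bars); the dashed line is the median of all detected coding genes, 11.2. Rheb stands alone at 84.0, and Tsc1 is lowest at 5.26.

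Related genes were then compared within each library, as log2 differences of CPM per kb, which answers which partner had the higher footprint density. In 11 comparisons, the sign was the same in 4 of 4 libraries each time. Each gave the smallest p that 4 libraries allow, p = 0.125 (two-sided exact sign-flip permutation test, also 0.125 after Benjamini-Hochberg adjustment), so no comparison here can reach 0.05. The test takes the 4 libraries as independent, whereas each pair was counted as 1 sample for the SD, and over the 2 pair means the smallest p is 0.5. For this reason the counting interval of the ratio is given beside each difference. It is a 95% exact interval from reads pooled over the libraries, and covers counting error only.

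Within the complexes, Mtor exceeded its partners. Against Rptor the differences were 0.92, 1.18, 1.12 and 0.89 in replicates 1 to 4, a mean of 1.03 ± 0.03 (SD, n = 2), or 2.04-fold, with a counting interval of 1.84 to 2.197. Against Rictor the mean was 1.40 ± 0.07, or 2.65-fold (2.45 to 2.93). Against Mlst8, which joins mTOR in both complexes, it was 0.42 ± 0.08, or 1.34-fold (1.18 to 1.55), with replicate 3 the lowest at 0.16. These sizes depended on length: per kb of exon length the differences were 2.35 against Rptor, 2.69 against Rictor and 2.17 against Mlst8. In CPM they were 1.97, 1.99 and 3.38. Rptor exceeded Rictor by 0.54, 0.26, 0.14 and 0.55, a mean of 0.38 ± 0.04, or 1.30-fold (1.19 to 1.49). In CPM the difference between Rptor and Rictor was only 0.02, with Rptor higher in 2 of 4 libraries, so it rests on the shorter coding sequence of Rptor, 4005 bases against 5124 for Rictor.

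Around Rheb, its inhibitor genes lay lower. Tsc1 lay below Tsc2 with differences of -1.62, -1.79, -1.72 and -1.50, a mean of -1.66 ± 0.07, which puts Tsc2 3.16-fold above (counting interval 2.74 to 3.66). The stated direction also held per kb of exon length, with a difference of -2.54, and in CPM, with -2.31. Tsc1 also lay below Tbc1d7, the third subunit of the complex, which stood at 16.1, 17.8, 13.4 and 16.5 CPM, with a mean difference of -1.76 ± 0.22, which puts Tbc1d7 3.39-fold above (2.84 to 4.18). That sign turned to 0.20 in CPM, where Tsc1 was higher in 3 of 4 libraries. Rheb exceeded Tsc2 by 2.42, 2.18, 2.21 and 2.44 per kb of coding length, a mean of 2.31 ± 0.02, or 4.97-fold (4.57 to 5.60). This direction also depended on length, since the difference was -0.65 per kb of exon length and -0.98 in CPM.

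Among the paralogs, 1 copy dominated in the Rheb and S6 kinase pairs. Rheb exceeded Rhebl1, a GTPase that can also activate mTORC1, by 3.64, 3.32, 4.61 and 3.32, a mean of 3.72 ± 0.34, or 13.2-fold (counting interval 9.24 to 17.0). Per kb of exon length the difference was 2.27. Rhebl1 held 48 reads in all, at 4.01, 4.18, 1.92 and 4.796 CPM. Rps6kb1 exceeded Rps6kb2, the gene of S6 kinase 2, by 1.53 ± 0.08, or 2.89-fold (2.28 to 4.22), with Rps6kb2 at 4.87, 4.18, 4.60 and 4.53 CPM. Per kb of exon length that difference was 0.86. Mknk2 exceeded Mknk1 by 0.32, 0.45, 0.68 and 0.38, a mean of 0.46 ± 0.10, or 1.37-fold (1.15 to 1.62). Per kb of exon length the difference between the MNK genes was 0.80, and in CPM it was 0.60. Of the windows of Mknk2, 2.07% lay within 2 mismatches of Mknk1. Mknk2 also exceeded Rps6kb1 by 1.14 ± 0.0049, or 2.21-fold (1.75 to 2.51), although single libraries ran from 0.55 in replicate 4 to 1.75 in replicate 3. It was 2.05 per kb of exon length.

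**Figure D3:**
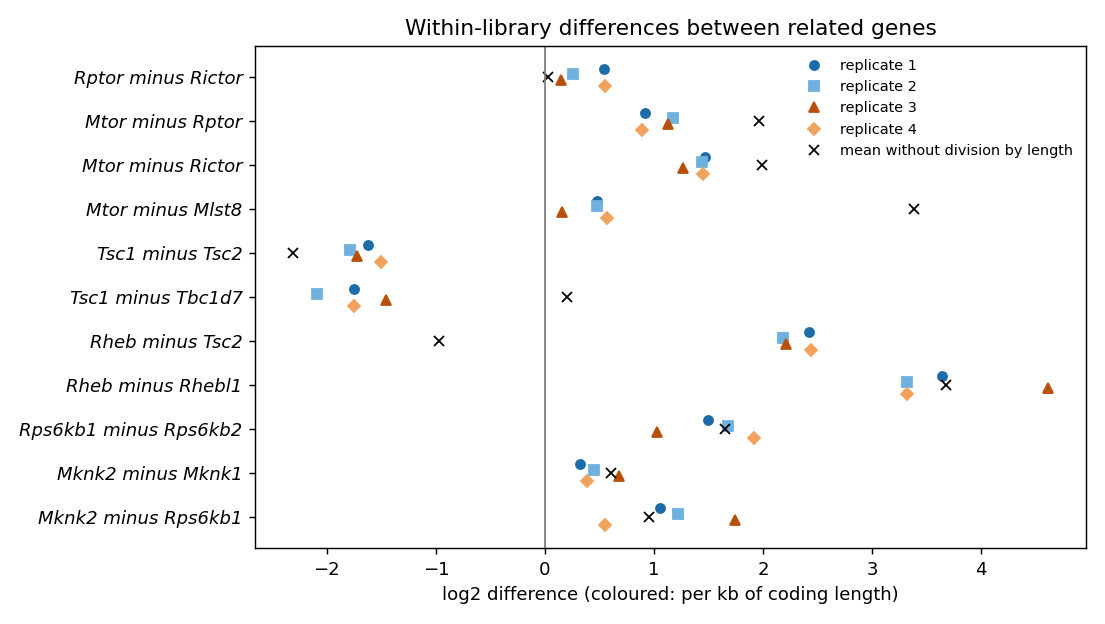
Log2 differences between related genes within each library per kb of coding length (coloured points) and the mean in CPM without division by length (crosses); the vertical line marks no difference. All 4 coloured points of a row lie on the same side of 0, while the crosses of Tsc1 minus Tbc1d7 and Rheb minus Tsc2 lie on the other.

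None of the members varied between the libraries beyond counting error by the test used. A chi-square test of equal shares of reads in the 4 libraries, adjusted by Benjamini-Hochberg over 13275 genes with whole reads, called 0 of 10 members at an adjusted p under 0.05, against a background of 7.38% of all genes tested. It also called 0 of 10 at an unadjusted p under 0.05. Rps6kb1 came nearest with an adjusted p of 0.304 (unadjusted 0.058), then Rptor with 0.351 (unadjusted 0.0785), and Rictor was at the other end with 0.974. The test compares libraries, not conditions, and it calls more of the deeper genes: 3.19% of genes with 10 to 30 CPM, 7.91% with 30 to 100 and 21.7% with 100 to 300. Of the members, 5 fall in the first of these classes, 4 in the next and Mtor in the last. A miss does not show equal values.

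Between the pairs, 3 members did not overlap. Replicates 1 and 2 both lay above replicates 3 and 4 for Mtor and Mknk1 and below them for Tsc1. The background was 24.0% of detected coding genes above and 23.6% below, or 47.6% in either direction, and 3 of 10 lies under it. The chi-square test over the 4 libraries did not separate these 3 members from counting error. Its unadjusted p was 0.23 for Mtor, 0.646 for Mknk1 and 0.842 for Tsc1. The log2 ratios of replicates 1 and 2 over replicates 3 and 4 were 0.24 for Mknk1, 0.11 for Mtor and -0.13 for Tsc1. The sum of skeletal muscle markers had a ratio of 1.63 over the same pairs, adipocyte markers 1.45, myelinating Schwann cell markers 0.815 and sensory neuron markers 0.966, and their part in these differences was not tested. Added up, the 10 members held 555, 530, 524 and 525 CPM, or 0.0534% of the reads.

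**Figure D4:**
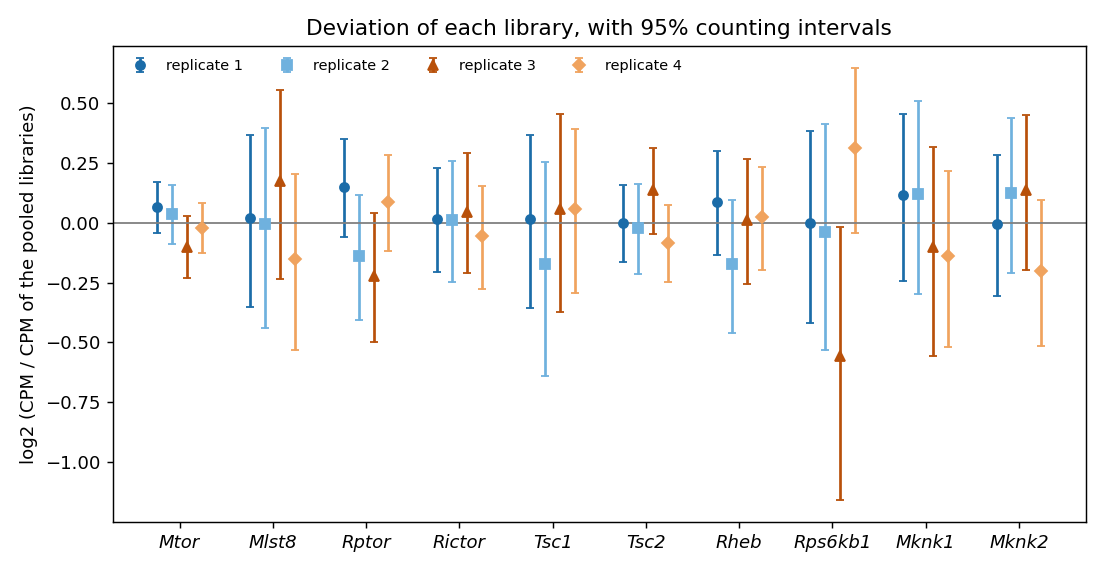
Log2 ratio of each library's CPM to that of the pooled libraries for the 10 members, with 95% exact Poisson intervals; the line at 0 is the pooled level. Nearly all intervals include 0; replicate 3 of Rps6kb1, with 27 reads, lies just below it.

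The 3 detected coding genes whose course over the 4 libraries lay nearest to that of Mtor were Atp5b, which encodes the beta subunit of ATP synthase, Lta4h, the leukotriene A4 hydrolase gene, and Ltbp1, a latent TGF-beta binding protein gene. Their Euclidean distances of centred log2 values were 0.011, 0.011 and 0.018, among 2952 candidates averaging 50 CPM or more. This likeness over 4 libraries in 2 pairs is a description only. Atp5b stood at 1045, 1017, 923 and 974 CPM.

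The members sit in a pathway that was almost wholly detected: of 83 other genes in 10 lists, 82 were detected. Over all coding genes, 13799 of 21620 were detected by the same rule. The median of the 82 pathway genes was 17.5 CPM per kb of coding length, beside 11.2 for all detected coding genes. By the chi-square test over libraries, 2 of the 79 tested were called as differing between libraries (2.53%), against 6.64% of detected coding genes. Ddit4, named here after its values were seen, was among them. It encodes REDD1, a stress-induced inhibitor of mTORC1, and stood at 30.7, 36.1, 47.9 and 49.6 CPM, with replicates 1 and 2 below replicates 3 and 4. The adjusted p of the chi-square test over all genes was 0.00351 for Ddit4.

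The list of accessory subunits and assembly factors of the mTOR complexes had a median of 8.96 CPM per kb over 8 of 8 detected genes. That median mixes subunits with assembly factors, so it is not a level of the subunits alone. Deptor, which encodes an inhibitory subunit of both complexes, was highest at 36.5 ± 3.74 CPM per kb (SD, n = 2), from 39.0, 44.0, 46.7 and 49.3 CPM. Prr5l, a gene of an mTORC2-associated protein, was lowest at 1.01 ± 0.220. Akt1s1, which encodes the mTORC1 subunit PRAS40, stood at 16.5 ± 1.78, and Mapkap1, which encodes the mTORC2 subunit SIN1, at 10.1 ± 0.368 CPM per kb. Of the relatives of TSC and Rheb, Tbc1d7 reached 18.2 ± 1.60 and Rhebl1 6.61 ± 0.927.

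The lysosomal platform that carries amino acid signals to mTORC1 spanned a wide range. Rag GTPase and Ragulator genes had a median of 21.8 CPM per kb over 13 of 13, led by Rraga, a Rag GTPase gene, at 115 ± 3.67 CPM per kb. Fnip2, a folliculin partner gene, was lowest at 1.92 ± 0.0627. The GATOR and KICSTOR genes, which hold the Rag GTPases in check or relieve that check, had a median of 7.65 over 12 of 12, with Sec13 highest at 49.8 ± 4.998 CPM per kb. Sec13 also serves the COPII coat and the nuclear pore. The amino acid sensors had a median of 10.8 over 6 of 6, from Sesn1, a sestrin gene, at 28.0 ± 0.555 to Sesn2, a leucine sensor gene, at 5.99 ± 0.470 CPM per kb.

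Upstream kinases and regulators had a median of 21.3 CPM per kb over 9 of 9. Ddit4 was highest at 59.7 ± 15.8, and Sgk3, a kinase gene related to AKT, was lowest at 3.75 ± 0.263 CPM per kb. S6 kinase substrates and relatives had a median of 28.0 over 6 of 6, with Poldip3, which encodes the S6K1 partner SKAR, highest at 47.0 ± 3.19 and Rps6kb2 lowest at 3.12 ± 0.0184. Of the other mTORC1 effectors, 10 of 11 were detected with a median of 17.5. Lpin1, a lipin gene, was highest at 38.8 ± 0.869, and Tfeb, which encodes a transcription factor of lysosomal genes, was lowest at 8.29 ± 1.22 CPM per kb. Eif4ebp3, a 4E-BP gene, was the 1 pathway gene not detected: it was listed at 0 in replicates 1 to 3 and at 0.438 CPM in replicate 4.

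Both MNK genes lay below the medians of the MAP kinase genes upstream of them and of the genes of the proteins they bind. MAP kinase genes upstream of MNK had a median of 30.8 CPM per kb over 8 of 8. Mapk3, which encodes ERK1, was highest of all 93 genes at 497 ± 8.14 CPM per kb, from 573, 573, 557 and 562 CPM, and Map2k6, a p38 activator gene, was lowest of its list at 10.4 ± 0.0887. The docking partners and substrates had a median of 33.9 over 8 of 8. Eif4g1, the scaffold on which MNK acts, was highest at 88.1 ± 4.60 CPM per kb. Eif4e itself stood at 38.3 ± 1.96 CPM per kb, against 20.5 for Mknk2 and 14.9 for Mknk1. Differences from MNK were not tested for these genes.

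**Figure D5:**
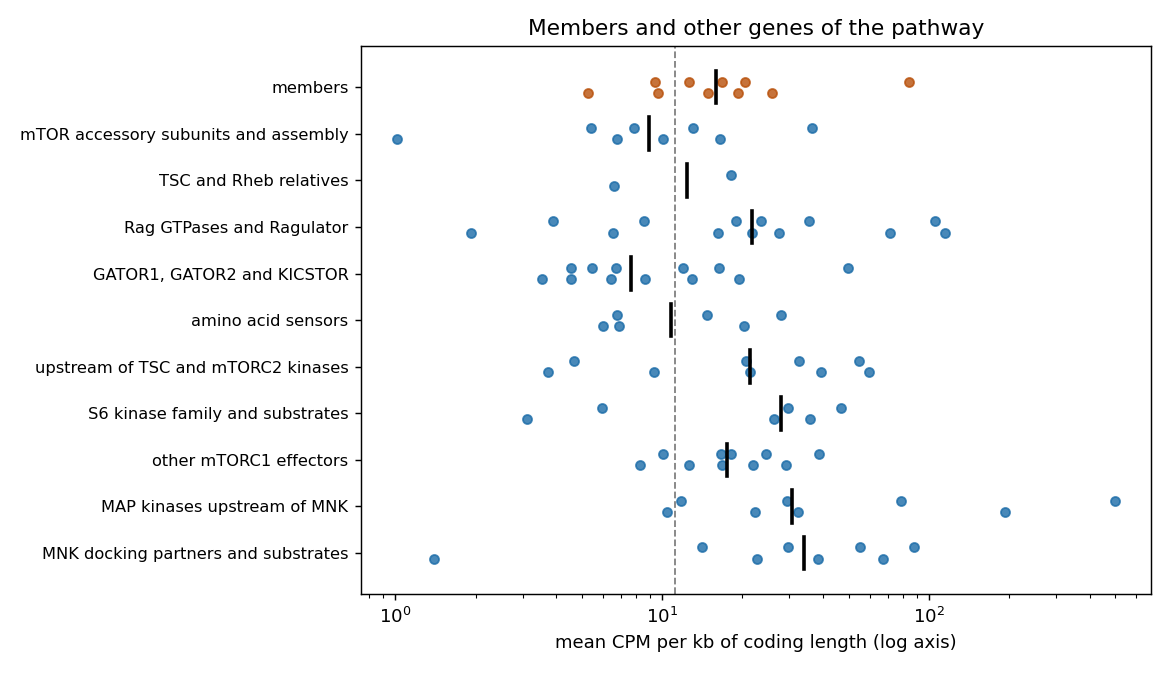
Mean CPM per kb of coding length (log axis) of the 10 members (orange) and of the 82 detected genes of 10 pathway lists (blue); black bars are list medians and the dashed line is the median of all detected coding genes, 11.2. List medians run from 7.65 for GATOR and KICSTOR genes to 33.9 for MNK partners and substrates.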

How the data were processed

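Spin columns were used to collect RNA bound to ribosomes, rRNA was depleted, and RNA of 28 to 34 nt was cut from a gel for small RNA libraries, per the labels' protocols. The submitters' processing notes name Cufflinks 2.2.1, Bowtie2 2.2.9, TopHat2 2.1.1 and FastQC 0.11.5, and the build GRCm38 (mm10). How reads were counted, with which annotation and on which strand, is not given in the sources used here. Libraries of 3' ends, which the protocol also names, were not analysed here. The deposited columns are named TPM, but behave as CPM: they sum to 1000000, and 96.5% to 96.9% of values above 0 were whole multiples of 1 read, within 0.02 reads. In replicate 1 this share was 90.4% to 97.5% over 4 classes of gene length. All members were whole reads in every library.

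Coordinates and coding lengths (the longest annotated coding sequence) come from GENCODE M21, in which 48052 gene IDs were found and 379 were not. Older symbols or IDs were used for Kics2, Castor1, Castor2 and Samtor. Contrasts used log2 of CPM per kb plus 0.1. The chi-square test took genes with a smallest expected count of 5 and was tried on simulated counts. There it called 22% of genes changed 1.25-fold in 2 libraries and 54% of those changed 1.5-fold. It also called 4 unchanged genes, with 13950 genes tested. On the deposited values the test was restricted to genes with whole reads in all 4 libraries, since some values were not whole. That choice was made after the deposited values were seen, and the simulation did not include it. Genes named are the members, those of the contrasts, the highest and lowest detected gene of each list, undetected list genes and the 3 nearest to Mtor; Akt1s1, Mapkap1, Eif4e, Angptl7, Pkd1 and Rptoros were added. Some genes that this rule names are not reported here. Members and lists were chosen with earlier results of these data known. Python 3.11.15, numpy 2.4.6, pandas 2.3.3, scipy 1.17.1, biopython 1.88 and matplotlib 3.10.9 were used. The alternatives are described at the end.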

Additional observations from a re-analysis of the deposited data

Results flagged for a closer look

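In 4 libraries a value counts as far from the others when its gap to the nearest, as a share of the range, exceeds Dixon's 95% critical value. Chance alone gives about 1 in 20 such values. Among 41 sets of 4 values checked, 2 met this. For Mtor minus Rictor the log2 difference per kb was 1.27 in replicate 3, below the 1.44 to 1.46 of the other libraries. Rraga stood at 117 CPM in replicate 1, against 104.8 to 106.5 CPM in the others.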

How the results depend on the processing

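The 11 contrasts kept their direction without any 1 replicate, in each pair alone and with pseudocounts of 0.01 or 1; no p could fall below 0.125. Length reversed 2 of them: Rheb minus Tsc2 was -0.65 per kb of exon length and -0.98 without division by length, and Tsc1 minus Tbc1d7 was 0.20 without division by length. Exon length moved 7 of the other 9 by over 1.5 times, and no division by length moved 3 of them, as given beside each. Without 1 replicate, Rptor minus Rictor ran from 0.27 to 0.48, Mtor minus Mlst8 from 0.32 to 0.52 and Mknk2 minus Mknk1 from 0.38 to 0.53. All 10 levels per kb moved by more than their SD when exon length was used. Leaving out replicate 1, 2, 3 or 4 moved 2, 2, 6 and 6 of them by more than that SD, which is over only 2 pair means. The count of members varying between libraries was 0 with another smallest expected count, library sizes without mitochondrial and rRNA genes, trimmed mean of M values scaling and without any 1 replicate; at an unadjusted p under 0.05 it was 1 without replicate 1 or 2. Of the 93 genes, 92 were detected at 1 CPM, 93 at 0.1 and 76 at 10. No paired analysis was possible because there is 1 group. Depth limits Rps6kb1 most, with 190 reads in all.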
